A study of Mus musculus with 12 samples.

Results

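The genes described here are 41 members of the machinery that copies DNA and supplies its building blocks, of 18546 genes in the expression table. They were chosen by gene symbol from a list covering origin licensing, the replicative helicase, DNA polymerases, the sliding clamp and its loader, E cyclins, chromatin assembly and deoxynucleotide synthesis. No cutoff on a measured value picked the rows, but the members were chosen with earlier results of these data known. All 41 were in the table and all 41 passed the filter on low values, 1 RPKM or more in at least 3 libraries, which left 15478 genes to test. RPKM is the number of reads scaled to the gene's length and to the library's size.

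The study sequenced ribosome- and mitochondria-depleted total RNA from SLAM hematopoietic stem cells, which are bone marrow cells sorted as CD150+CD48-Lin-Sca1+cKit+, of C57BL/6 mice aged 10 to 12 weeks. There were 3 libraries of NrasG12D/+ mice, which carry 1 activated Nras allele, 3 of Tet2+/- mice, which have lost 1 copy of the cytosine dioxygenase gene Tet2, 3 of NrasG12D/+;Tet2+/- double mutants and 3 of wild-type mice. The labels do not say whether a library came from 1 mouse or from pooled mice, nor how the alleles were driven, so the p-values measure the spread between these libraries. The design lets each allele be set against its absence in both backgrounds: the 6 NrasG12D/+ carriers against the 6 non-carriers, and the same for Tet2. In bulk RNA, fewer cells that replicate and less of a transcript in each cell cannot be told apart.

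Depth was 19205045 to 36890942 reads in genes per library. The sorting markers Kit, at 64.7 to 86 RPKM, Slamf1 and Ly6a were present in every library, as were the stem cell genes Hlf, Procr and Mecom. These 6 summed to 178 to 182 RPKM in Tet2+/- libraries, against 136 to 172 RPKM in NrasG12D/+. Double mutants had 148 to 174 RPKM and wild type 148 to 176 RPKM. Cd48, an antigen selected against, was at 0 reads in 9 libraries with a highest value of 1.28 RPKM. Of 8 lineage antigens, also selected against, 4 were in the table. They summed to 0.637 to 3.08 RPKM in NrasG12D/+ and 1.82 to 2.97 RPKM in Tet2+/- libraries. Double mutants had 0.332 to 2.27 RPKM and wild type 1.12 to 4.54 RPKM. The summed level of 5 megakaryocyte markers, all in the table, with Ppbp at 0 reads in 7 libraries, Gp1bb in 6 and Pf4 in 1, was 31.1 to 51.7 RPKM in NrasG12D/+ and 34.7 to 41.4 RPKM in double-mutant libraries, against 20.1 to 27.6 RPKM in Tet2+/- and 21.8 to 30.9 RPKM in wild-type libraries. The carriers of the Nras allele thus did not overlap the non-carriers in this sum, and its part in the results below was not tested. The 3 of 5 erythroid markers in the table, with Klf1 at 0 reads in 5 libraries, summed to 10.3 to 16.8 RPKM in NrasG12D/+, 4.52 to 7.36 RPKM in Tet2+/-, 3.4 to 11.3 RPKM in double-mutant and 12.2 to 16.3 RPKM in wild-type libraries. Of the granulocyte-monocyte markers 3 of 5 were in the table, with Elane at 0 reads in 9 libraries and Mpo in 4, and they summed to 4.47 to 7.99 RPKM in NrasG12D/+, 11.2 to 15.9 RPKM in Tet2+/-, 5.96 to 10.1 RPKM in double-mutant and 7.41 to 10.8 RPKM in wild-type libraries. The part of these markers in the results was not tested either. Nras RNA itself was 4.76 to 6.83 RPKM and Tet2 RNA 4.09 to 7.03 RPKM over the 12 libraries, levels that do not check the genotypes, since they do not read the G12D change or the lost part of Tet2.

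Origins are licensed in G1, when the origin recognition complex, Cdc6 and Cdt1 load the MCM helicase onto DNA. At the start of S phase, cyclin E with its kinase and other factors bring Cdc45 and the GINS complex to MCM, primase and polymerase alpha lay down primers, and polymerases delta and epsilon extend them with the clamp PCNA. Many of these genes are transcribed together at the G1/S boundary by E2F factors, which Rb-family pocket proteins hold in check. Hematopoietic stem cells are mostly quiescent, so a bulk sample of them holds few cells in S phase.

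Promoter sequences of the members are shown because their shared control by E2F is the usual reason to treat them as 1 group. RefSeq windows on GRCm38.p6 of 300 bases, 250 before and 50 after the annotated start, were found for 33 of the 41 members; Mcm4, Gmnn, Gins1, Gins2, Prim2, Pole, Rfc2 and Ccne2 had none. The E2F words searched on both strands were TTTCCCGC, TTTGGCGC, TTTCGCGC and TTTGCCGC, which can overlap each other. At least 1 of them was in a window of 12 of the 33 members, 36.4%, against 4.6% of the 10561 genes of the expression table that had a window. By window, it was 12 of 38 windows, 31.6%, against 2.26% of 32851. The 12 were Cdc6, Cdt1, Gins3, Lig1, Mcm3, Mcm5, Mcm6, Mcm7, Orc1, Pola1, Pold1 and Rfc3. The CCAAT word, on both strands, was in windows of 21 members, 63.6%, against 42.6% of table genes. The word TTTGAA, of the cell cycle homology region found in many mitotic promoters, was in those of 4 members, 12.1%, against 14.6%. A match describes letters, and its absence says nothing about binding. In the windows below, written 5′ to 3′ on the gene's strand, capitals mark the E2F words; the first 4 genes are among those with an unadjusted p under 0.05 for the Nras allele, and Mcm6 and Mcm5 each have overlapping words on opposite strands.
Pold1, chr7:44548766-44549065, minus strand: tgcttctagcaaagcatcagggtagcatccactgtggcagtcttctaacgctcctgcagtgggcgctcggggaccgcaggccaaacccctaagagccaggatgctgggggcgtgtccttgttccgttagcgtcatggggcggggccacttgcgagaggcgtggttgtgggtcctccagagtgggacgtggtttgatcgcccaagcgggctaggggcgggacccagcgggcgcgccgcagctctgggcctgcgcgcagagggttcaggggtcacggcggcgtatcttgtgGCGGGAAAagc
Pola1, chrX:93632106-93632405, minus strand: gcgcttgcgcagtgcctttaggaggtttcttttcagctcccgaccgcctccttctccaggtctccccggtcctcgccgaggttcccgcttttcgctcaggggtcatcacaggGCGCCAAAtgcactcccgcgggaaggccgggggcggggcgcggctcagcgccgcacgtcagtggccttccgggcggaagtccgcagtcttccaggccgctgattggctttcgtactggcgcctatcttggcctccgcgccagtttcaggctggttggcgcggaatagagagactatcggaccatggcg
Mcm7, chr5:138171834-138172133, minus strand: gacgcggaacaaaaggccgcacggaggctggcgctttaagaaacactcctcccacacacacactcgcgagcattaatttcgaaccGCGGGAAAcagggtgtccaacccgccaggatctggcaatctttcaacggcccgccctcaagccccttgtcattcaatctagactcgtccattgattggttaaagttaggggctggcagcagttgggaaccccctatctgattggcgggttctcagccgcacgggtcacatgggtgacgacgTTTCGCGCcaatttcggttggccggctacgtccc
Lig1, chr7:13278576-13278875, plus strand: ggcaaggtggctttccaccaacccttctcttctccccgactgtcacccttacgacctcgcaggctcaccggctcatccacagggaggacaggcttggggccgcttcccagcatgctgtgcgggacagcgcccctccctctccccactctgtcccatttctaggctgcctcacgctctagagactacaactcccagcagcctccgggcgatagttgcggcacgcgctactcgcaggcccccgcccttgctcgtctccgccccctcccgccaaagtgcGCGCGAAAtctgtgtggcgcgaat
Mcm6, chr1:128359656-128359955, minus strand: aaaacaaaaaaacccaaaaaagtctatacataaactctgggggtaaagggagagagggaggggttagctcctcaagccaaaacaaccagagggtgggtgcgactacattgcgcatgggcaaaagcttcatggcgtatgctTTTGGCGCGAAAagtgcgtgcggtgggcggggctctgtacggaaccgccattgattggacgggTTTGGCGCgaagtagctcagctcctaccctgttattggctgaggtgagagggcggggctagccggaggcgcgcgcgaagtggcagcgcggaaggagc
Mcm5, chr8:75109259-75109558, plus strand: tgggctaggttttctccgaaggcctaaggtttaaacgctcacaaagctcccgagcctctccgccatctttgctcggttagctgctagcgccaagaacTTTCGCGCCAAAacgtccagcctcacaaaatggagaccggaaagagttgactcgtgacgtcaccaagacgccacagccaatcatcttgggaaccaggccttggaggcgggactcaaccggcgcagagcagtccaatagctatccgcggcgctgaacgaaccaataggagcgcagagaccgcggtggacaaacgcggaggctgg
In the windows shown, the word lay 39 bases after the start in Pold1, 26 after it in Lig1 and 138 before it (offset -138) in Pola1. Lig1 and Mcm7 also had windows at other annotated starts, and those held no E2F word. Of the 18 matches in all member windows, 11 were within 100 bases of the start. In the averaged Nras comparison (carriers minus non-carriers) the median log2 difference was 0.34 for the 12 members with an E2F word, 11 of them above 0, and 0.24 for the 21 with a window but no word, 20 of them above 0. In double mutant against Tet2+/- the medians were 0.47 with a word and 0.18 without, with 10 of 12 and 16 of 21 above 0, and in NrasG12D/+ against wild type 0.26 with and 0.34 without, with 10 of 12 and 19 of 21 above 0. In Tet2+/- against wild type, 1 of the 12 with a word was above 0, with a median of -0.11, and 12 of the 21 without, with a median of 0.06. The change in the Nras difference with the Tet2 allele was above 0 in 10 of 12 with a word (median 0.15) and in 8 of 21 without (median -0.14). The ranges of both sets overlapped in each of these comparisons, and the difference between the sets was not tested.

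By the deposited values the members ranged from Mcm2, a subunit of the MCM helicase and the highest of them on average, to Gmnn, which encodes the licensing inhibitor geminin and was the lowest. Mcm2 had 58.5, 68.3 and 77 RPKM in NrasG12D/+ libraries and 69.7, 65.5 and 59.3 RPKM in double-mutant libraries, against 69.1, 44.9 and 45.1 RPKM in Tet2+/- libraries and 46.5, 48.6 and 61.5 RPKM in wild-type libraries. The order of genes depends on the length used. Read counts recovered from the table showed that the authors' gene length was the exon length added up over all annotated transcripts for 27 of the 41 members, and it was longer than the merged exons for 33. Over merged exons, Mcm3 stood first and Mcm2 stood 7 in the order of members. For Mcm2 the authors' length, 3370 bases, was below the 6956 of the merged exons. The 2 gene models thus differ, and its place over merged exons is uncertain. Differences between libraries of 1 gene do not depend on length. The pooled spread between libraries of a genotype had a median SD of 0.30 on the log2 scale over the members, against 0.49 over all genes tested, and it ran from 0.17 for Pold1 to 3.77 for Gmnn. Of the 41, 37 had at least 100 reads in every library.

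**Figure D1:**
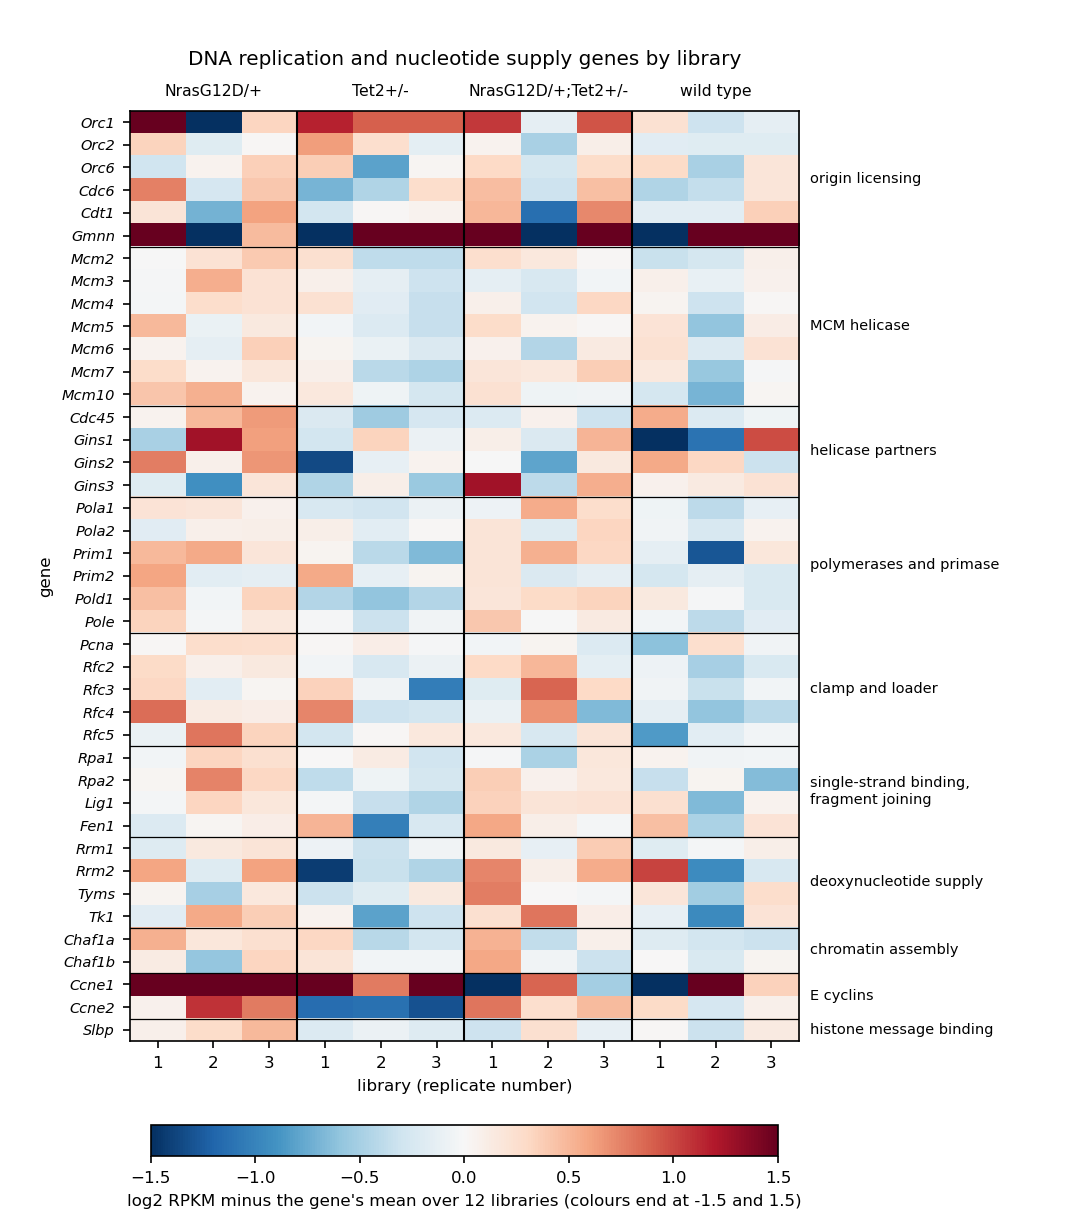
Deposited log2 RPKM of the 41 genes in each of the 12 libraries, minus the gene's mean, with genes in rows by role and libraries in columns by genotype (red above and blue below the gene's mean). In replicate 3 of NrasG12D/+, 40 of the 41 genes were above their own mean, and in replicate 2 of wild type 6 were. Over all tested genes the median of these centred values was 0.12 in that NrasG12D/+ library and 0.09 in that wild-type library. Gmnn, Orc1 and Ccne1 reach past the ends of the colour scale.

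Most replication genes had higher values in NrasG12D/+ carriers than in non-carriers, by small differences, and no single gene passed the test. Averaged over Tet2 genotype, 38 of the 41 members had a log2 difference above 0 (92.7%), against 48.9% of all genes tested, with a median of 0.29 against -0.01. The 3 below 0 were Orc1, Orc2 and Gmnn. These counts take the sign of every member's fitted difference, also of Orc1, Gmnn and Ccne1, which had 3 reads or fewer in at least 1 library; without those 3, 37 of 38 were above 0, with a median of 0.31. With limma, 0 members passed an adjusted p of 0.05 in either direction, where 0.0258% of all genes passed higher and 0.00646% lower. With voom on the recovered reads 0 members passed as well, and the share of all genes was not counted there. At an unadjusted p under 0.05, 13 members were higher (31.7%), against 3.87% of all genes, and 0 were lower, against 3.37%. These 13 were Ccne2, Pold1, Rpa2, Pola1, Prim1, Rfc2, Mcm7, Pole, Mcm2, Tk1, Lig1, Chaf1a and Rrm2.

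By library, the median of the 41 centred log2 values was 0.13, 0.08 and 0.24 in NrasG12D/+ and 0.20, -0.01 and 0.15 in double mutants, against 0.01, -0.17 and -0.22 in Tet2+/- and -0.06, -0.28 and 0.04 in wild type. Over all tested genes it was 0.05, 0.00 and 0.12 in NrasG12D/+ and 0.04, 0.03 and 0.08 in double mutants. In Tet2+/- it was 0.03, 0.09 and 0.08, and in wild type -0.07, 0.09 and 0.07. Carriers and non-carriers overlapped in the members' median: double-mutant replicate 2 lay below Tet2+/- replicate 1 and wild-type replicate 3. The members took 0.363% to 0.378% of gene reads in NrasG12D/+ and 0.324% to 0.377% in double-mutant libraries, against 0.272% to 0.327% in Tet2+/- and 0.260% to 0.342% in wild-type libraries. The genotype with the highest mean was NrasG12D/+ for 20 members, the double mutant for 17, Tet2+/- for 3 and wild type for 1, where each genotype was highest for 24.8% to 25.4% of all genes. The lowest mean was in Tet2+/- for 21 members and in wild type for 16, where Tet2+/- was lowest for 22.9% of all genes and wild type for 26.5%.

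**Figure D2:**
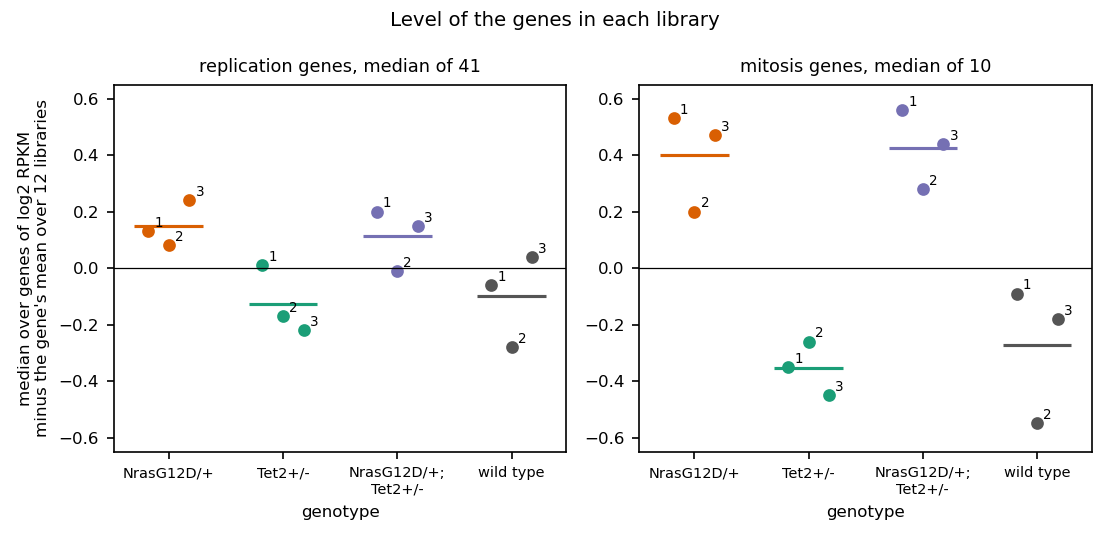
Median over genes of log2 RPKM minus each gene's mean over the 12 libraries, for the 41 replication genes (left) and the 10 mitosis genes (right); points are libraries with their replicate number and bars are means of 3. The mitosis medians of carriers, 0.20 to 0.56, lay above all those of non-carriers, -0.55 to -0.09, while the replication medians overlapped.

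Of the 6 origin licensing genes, 3 had a difference above 0 with the Nras allele. Cdc6, the ATPase that loads MCM with Cdt1, had 3.55, 1.76 and 2.77 RPKM in NrasG12D/+ and 2.90, 1.69 and 2.87 RPKM in double-mutant libraries, against 1.29, 1.53 and 2.53 RPKM in Tet2+/- and 1.54, 1.64 and 2.39 RPKM in wild-type libraries. Its groups overlapped, with a log2 difference of 0.50 ± 0.30 (SE; adjusted p = 0.782). Cdt1, the other loading factor, and Orc2 and Orc6, both subunits of the origin recognition complex, had differences of 0.06, -0.06 and 0.14. Orc1, its largest subunit, had 630, 2 and 319 reads in NrasG12D/+ and 309, 218 and 394 reads in double mutants, against 531, 339 and 348 reads in Tet2+/- and 164, 142 and 222 reads in wild type, so 1 library holds almost none. Its log2 difference of -0.91 ± 1.16 (adjusted p = 0.892) was 0.33 without that library. Gmnn had 72, 2 and 37 reads in NrasG12D/+ and 63, 0 and 151 reads in double mutants, against 1, 81 and 117 reads in Tet2+/- and 2, 108 and 142 reads in wild type. Each genotype thus had 1 library with at most 2 Gmnn reads, below a floor of 3 reads, and in each genotype it was the library with the most genes at 0 reads; its fitted difference rests on those libraries and is not read as a fold.

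All 7 genes listed with the MCM helicase had a difference above 0 with the Nras allele, with a median of 0.29. Mcm7 had 27.2, 23.2 and 25.2 RPKM in NrasG12D/+ and 25.5, 25.1 and 28.9 RPKM in double-mutant libraries, against 23.7, 17 and 16.3 RPKM in Tet2+/- and 25.1, 15.1 and 22.2 RPKM in wild-type libraries. The carriers sat within a narrow band and the non-carriers spread below it, with 2 of them inside the band. Mcm7 averaged 25.8 ± 1.96 RPKM in carriers and 19.9 ± 4.26 RPKM in non-carriers (SD, n = 6 each; log2 difference 0.40 ± 0.14, SE; limma adjusted p = 0.541), and Mcm2 averaged 66.4 ± 6.93 RPKM in carriers and 52.6 ± 10.2 RPKM in non-carriers (0.35 ± 0.13; adjusted p = 0.578). Mcm5 and Mcm10 (a scaffold that joins helicase and primase) had 0.29 and 0.37, Mcm4 0.18 and Mcm3 0.11. Mcm6, a subunit of the same ring as Mcm2 and Mcm7, averaged 37 ± 6.64 RPKM in carriers and 36.4 ± 5.09 RPKM in non-carriers, a log2 difference of 0.01 with a 95% interval of -0.28 to 0.31.

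The 4 helicase partners, Cdc45 and the GINS subunits, were all above 0 in the averaged Nras comparison, from 0.17 for Gins3 to 0.59 for Gins1, and 0 of them had an unadjusted p under 0.05. Cdc45 had 6.86, 9.3 and 10.3 RPKM in NrasG12D/+ and 5.74, 6.96 and 5.34 RPKM in double-mutant libraries, against 5.72, 4.58 and 5.56 RPKM in Tet2+/- and 9.74, 5.76 and 6.33 RPKM in wild-type libraries. Its 5 lowest values were in Tet2 heterozygotes with or without the Nras allele, and its Nras difference was 0.24 ± 0.17 (adjusted p = 0.835). Gins1 spread widely, with 2.17, 7.3 and 4.64 RPKM in NrasG12D/+ and 3.22, 2.62 and 4.34 RPKM in double-mutant libraries, against 2.51, 3.82 and 2.85 RPKM in Tet2+/- and 0.993, 1.41 and 6 RPKM in wild-type libraries. Without wild-type replicate 1 its difference was 0.33, and without wild-type replicate 3 it was 0.98.

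Polymerase and primase genes gave 4 of the 13 small p-values, and all 6 were above 0 with a median of 0.37. Pold1, the catalytic subunit of polymerase delta, had 6.73, 4.79 and 6.24 RPKM in NrasG12D/+ and 5.6, 6.04 and 6.24 RPKM in double-mutant libraries, against 3.64, 3.28 and 3.64 RPKM in Tet2+/- and 5.44, 4.88 and 4.22 RPKM in wild-type libraries. The 3 Tet2+/- libraries were the lowest of the 12, and the overlap came from NrasG12D/+ replicate 2, below 2 wild-type libraries. It averaged 5.94 ± 0.671 RPKM in carriers and 4.19 ± 0.834 RPKM in non-carriers (0.52 ± 0.14; adjusted p = 0.373). Pola1, the catalytic subunit of the primer-making polymerase alpha, had 15.7, 15.5 and 14.3 RPKM in NrasG12D/+ and 12.9, 20.1 and 16.3 RPKM in double-mutant libraries, against 11.5, 11.2 and 12.8 RPKM in Tet2+/- and 13, 10.4 and 12.5 RPKM in wild-type libraries. Carriers and non-carriers of the Nras allele met only at 12.9 and 13 RPKM, and the log2 difference was 0.40 ± 0.12 (adjusted p = 0.412). Prim1, the catalytic primase subunit, was the 1 member whose 6 carriers all lay above its 6 non-carriers (2.44% of members, against 0.459% of all genes). Its carriers had 6.51 to 8.5 RPKM with a median of 7.55, against 2.36 to 6.46 RPKM with a median of 4.76 in non-carriers, and the log2 difference was 0.76 ± 0.25 (adjusted p = 0.503). Pole, the catalytic subunit of polymerase epsilon, had 0.34 ± 0.12 (adjusted p = 0.541), while the partner subunits Pola2 and Prim2 had 0.10 and 0.05.

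All 5 clamp and loader genes were above 0, with a median of 0.38. Rfc2, a subunit of replication factor C, which opens the clamp, had 10.6, 9.19 and 9.59 RPKM in NrasG12D/+ and 10.7, 12.3 and 7.89 RPKM in double-mutant libraries, against 8.44, 7.39 and 8.2 RPKM in Tet2+/- and 8.26, 6.15 and 7.45 RPKM in wild-type libraries. Of the 6 carriers 5 were above every non-carrier, and the log2 difference was 0.39 ± 0.13 (adjusted p = 0.514). Rfc5, a further subunit, had 4.24, 7.98 and 5.75 RPKM in NrasG12D/+ and 5.1, 3.86 and 5.21 RPKM in double-mutant libraries, against 3.78, 4.6 and 5.08 RPKM in Tet2+/- and 2.53, 4.08 and 4.44 RPKM in wild-type libraries. These groups overlapped (0.38 ± 0.21; adjusted p = 0.76). Rfc3 and Rfc4 had 0.39 and 0.32, and Pcna, the clamp itself, averaged 15.2 ± 1.89 RPKM in carriers and 14.3 ± 2.62 RPKM in non-carriers (0.10 ± 0.14).

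Rpa2, a subunit of the single-strand binding protein RPA, had 8.12, 13.3 and 9.91 RPKM in NrasG12D/+ and 10.3, 8.3 and 8.85 RPKM in double-mutant libraries, against 6.11, 7.59 and 6.62 RPKM in Tet2+/- and 6.24, 8.19 and 5.09 RPKM in wild-type libraries. The overlap was of 1 library on each side, 8.12 RPKM in a carrier and 8.19 RPKM in a wild-type library, and the log2 difference was 0.56 ± 0.16 (adjusted p = 0.412). Lig1, the ligase that joins lagging-strand fragments, averaged 6.4 ± 0.577 RPKM in carriers and 4.94 ± 1.14 RPKM in non-carriers (0.40 ± 0.17; adjusted p = 0.676). Its values were 5.42, 6.91 and 6.22 RPKM in NrasG12D/+ and 7.04, 6.36 and 6.43 RPKM in double-mutant libraries, against 5.42, 4.36 and 4.07 RPKM in Tet2+/- and 6.53, 3.51 and 5.73 RPKM in wild-type libraries. Wild-type replicates 1 and 3 thus stood among the carriers, and Tet2+/- replicate 1 matched the lowest of them. Rpa1, the large RPA subunit, and Fen1, the flap endonuclease of the same step, had 0.07 and 0.19.

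The deoxynucleotide genes were all above 0. Rrm2, the S phase subunit of ribonucleotide reductase, had 7.01, 4.07 and 7.06 RPKM in NrasG12D/+ and 7.76, 4.94 and 6.87 RPKM in double-mutant libraries, against 1.73, 3.69 and 3.42 RPKM in Tet2+/- and 9.4, 2.43 and 3.94 RPKM in wild-type libraries. The highest of the 12 values was in wild-type replicate 1, and the log2 difference of 0.79 ± 0.35 (adjusted p = 0.678) was 1.06 without it and 0.57 without wild-type replicate 2. Tk1, thymidine kinase, had 4.38, 7.33 and 6.36 RPKM in NrasG12D/+ and 5.83, 8.63 and 5.29 RPKM in double-mutant libraries, against 5.12, 2.82 and 3.99 RPKM in Tet2+/- and 4.53, 2.55 and 5.69 RPKM in wild-type libraries (0.64 ± 0.26; adjusted p = 0.627). Here too the groups overlapped. Rrm1, the large reductase subunit, and Tyms, thymidylate synthase, had 0.19 and 0.15.

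Chaf1a, the large subunit of the histone chaperone CAF-1, had 34.4, 26.7 and 28.1 RPKM in NrasG12D/+ and 34.2, 18.4 and 25 RPKM in double-mutant libraries, against 29.6, 17.8 and 19.7 RPKM in Tet2+/- and 20.8, 19.6 and 19 RPKM in wild-type libraries (0.39 ± 0.17; adjusted p = 0.678). The 3 NrasG12D/+ libraries lay above all 3 of wild type. Its partner Chaf1b averaged 8.11 ± 2.35 RPKM in carriers and 7.7 ± 0.72 RPKM in non-carriers (0.03 ± 0.19). Slbp, which binds the stem-loop of replication-dependent histone messages, had 5.03, 5.76 and 6.68 RPKM in NrasG12D/+ and 3.83, 5.6 and 4.38 RPKM in double-mutant libraries, against 4.12, 4.46 and 4.17 RPKM in Tet2+/- and 4.82, 3.8 and 5.24 RPKM in wild-type libraries. Its highest values were in NrasG12D/+ replicates 2 and 3, and the log2 difference was 0.22 ± 0.15 (adjusted p = 0.828), or 0.14 without double-mutant replicate 2.

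Ccne2, which encodes cyclin E2, an activator of Cdk2 at S phase entry, had the smallest p of the members. It had 1.76, 3.57 and 2.89 RPKM in NrasG12D/+ and 2.94, 2.01 and 2.33 RPKM in double-mutant libraries, against 0.761, 0.772 and 0.681 RPKM in Tet2+/- and 2.05, 1.41 and 1.78 RPKM in wild-type libraries. Tet2+/- libraries lay below all 9 others and close to each other, while the double mutants, which carry the same Tet2 allele, lay within the range of NrasG12D/+ libraries. Averaged, it was 2.58 ± 0.673 RPKM in carriers and 1.24 ± 0.589 RPKM in non-carriers, a log2 difference of 1.16 ± 0.27 (95% interval 0.55 to 1.76; unadjusted p = 0.00162, limma adjusted p = 0.314). The other E cyclin, Ccne1, had 185, 389 and 211 reads in NrasG12D/+ and 1, 118 and 39 reads in double mutants, against 254, 85 and 166 reads in Tet2+/- and 0, 145 and 84 reads in wild type. With 2 libraries under the floor of 3 reads, its fitted difference is not read as a fold either.

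**Figure D3:**
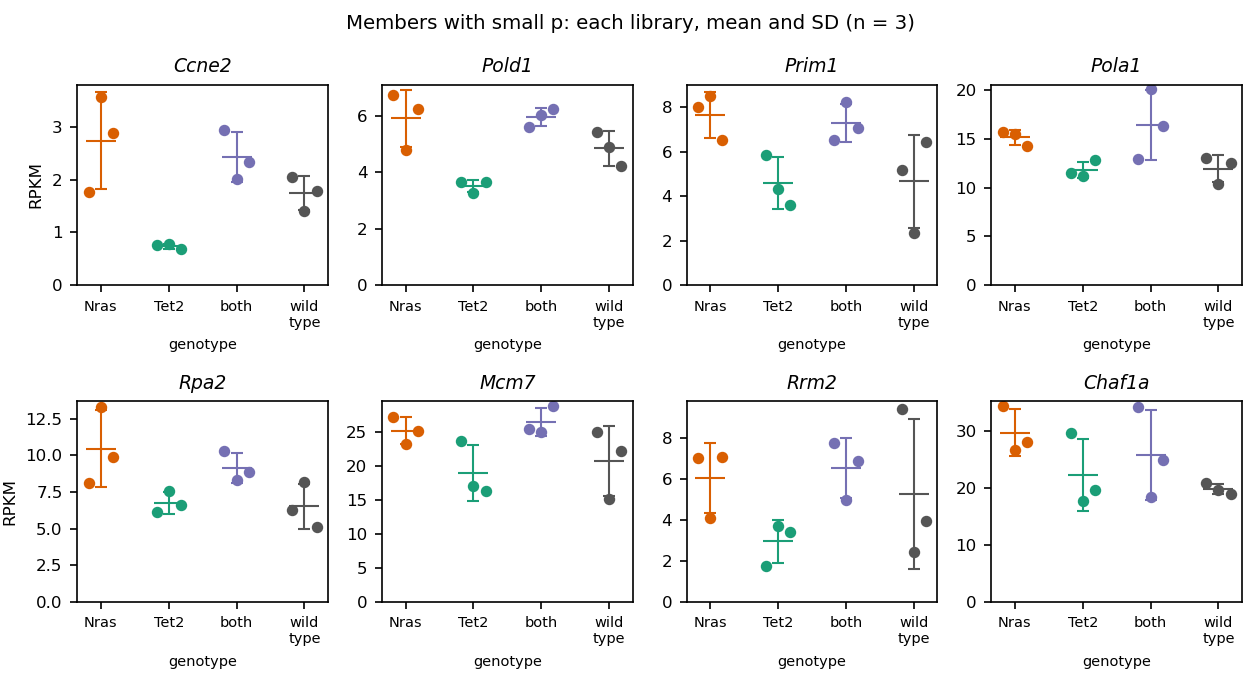
RPKM of 8 of the 13 members with an unadjusted p under 0.05 for the Nras allele, by genotype; points are libraries, bars are means with SD (n = 3), and each axis starts at 0. Ccne2 and Pold1 are lowest in the 3 Tet2+/- libraries, and Rrm2 is highest in 1 wild-type library, at 9.4 RPKM.

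**Figure D4:**
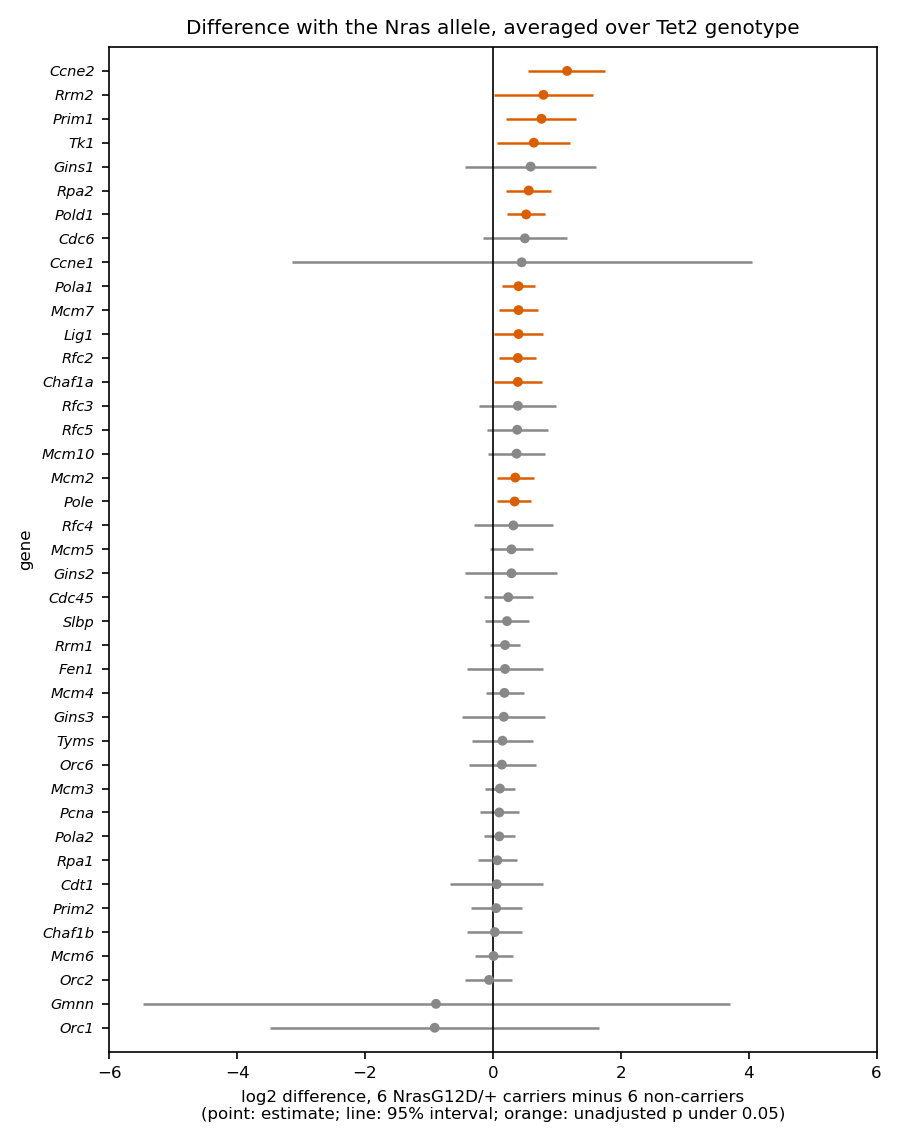
Log2 difference of each member between the 6 NrasG12D/+ carriers and the 6 non-carriers, with its 95% interval and orange for an unadjusted p under 0.05. Of the 41 points 38 lie above 0, and the intervals of Gmnn, Ccne1 and Orc1, the genes with libraries at 3 reads or fewer, are the widest.

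The Nras allele was measured in 2 comparisons that share no library, NrasG12D/+ against wild type and double mutant against Tet2+/-. In NrasG12D/+ against wild type, 36 members were above 0 (87.8%), against 51.4% of all genes, with a median of 0.31 against 0.01; 0 members passed the adjusted test, where 0.00646% of all genes passed higher. At an unadjusted p under 0.05, 6 were higher, against 3.19% of all genes: Chaf1a, Mcm10, Prim1, Rfc2, Rfc5 and Rpa2; 0 were lower, against 2.42%. In 7 members (17.1%) the 3 NrasG12D/+ libraries all lay above the 3 wild-type libraries, against 5.27% of all genes, and in 0 all below, against 4.48%. In double mutant against Tet2+/-, 32 members were above 0 (78%), against 47.1% of all genes, with a median of 0.24 against -0.03, and again 0 passed, against 0.00646% higher. Here 5 had an unadjusted p under 0.05, against 2.58%: Ccne2, Mcm7, Pola1, Pold1 and Rrm2. None was lower at that p (0 of 41, against 2.87%). In 11 members (26.8%) the double mutants all lay above Tet2+/- libraries, against 6.22%, and in 0 all below, against 6.53%. The largest of these differences was that of Ccne2, 1.70 ± 0.38 (adjusted p = 0.511), followed in p by Pold1 with 0.76 ± 0.19 (adjusted p = 0.578).

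Both differences were above 0 for 29 members, which is 80.6% of the 36 and 90.6% of the 32. Of all 41 members, 78% were above 0 in the second comparison and 87.8% in the first. The count of 29 thus adds little to the 2 separate counts. Over all genes both were above 0 for 26.6%, or 51.7% of those above 0 in the first comparison and 56.4% of those in the second. The shares of all genes above 0 were 47.1% in the second comparison and 51.4% in the first. The named genes with small p differed between backgrounds, but the difference of the differences passed in 0 members, where 0.0129% of all genes passed lower; at an unadjusted p under 0.05 it was 0 members as well, against 1.43% of genes higher and 1.95% lower. For the Nras allele, Rpa2 had 0.43 ± 0.23 with the Tet2 allele and 0.68 ± 0.23 without it, Prim1 0.69 ± 0.35 with and 0.83 ± 0.35 without, and Rfc2 0.34 ± 0.18 with and 0.43 ± 0.18 without. Chaf1a had 0.20 ± 0.24 with the Tet2 allele and 0.58 ± 0.24 without it, and Gins3 had 0.78 ± 0.41 with and -0.45 ± 0.41 without. Ccne2 and Pold1, the members with the smallest p in the averaged comparison, had larger differences with the Tet2 allele. Ccne2 had 1.70 ± 0.38 with it and 0.61 ± 0.38 without, and Pold1 had 0.76 ± 0.19 with and 0.28 ± 0.19 without. Among all 41 members the change with the Tet2 allele was above 0 in 20 and below 0 in 21. The intervals of such contrasts are wide, and the data do not show that the allele acts alike in both backgrounds.

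**Figure D5:**
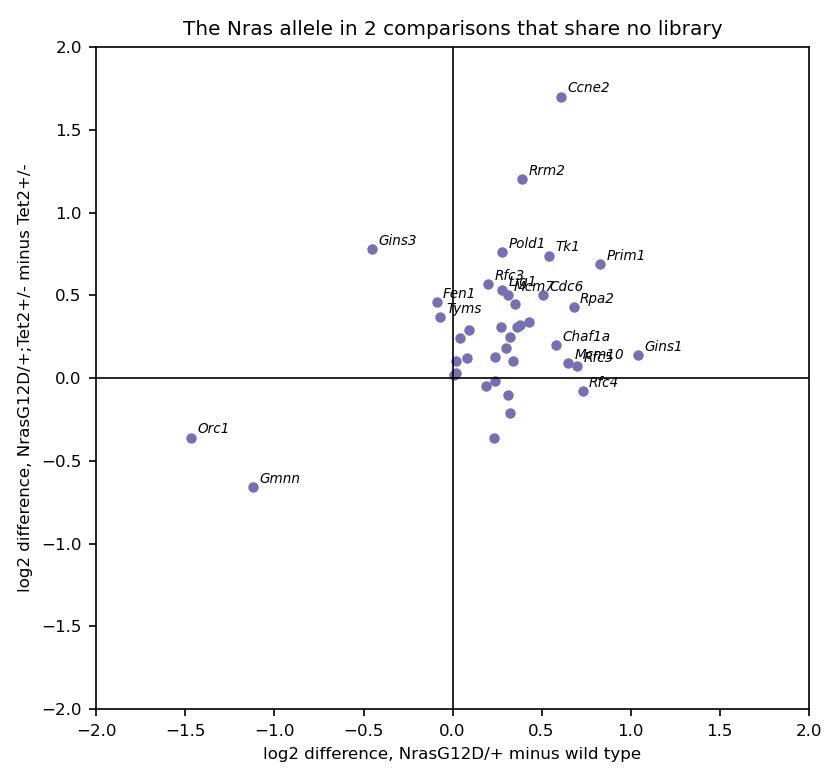
Log2 difference of each member in NrasG12D/+ against wild type (horizontal) and in double mutant against Tet2+/- (vertical), 2 comparisons with no library in common. 40 members are drawn, 29 of them in the upper right; Ccne1, with 2 libraries under 3 reads, lies outside the axes, and the points of Gmnn and Orc1 also rest on libraries with almost no reads.

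Against wild type, double mutants had 34 members above 0, against 51.6% of all genes, with a median of 0.32 against 0.02. None passed the adjusted test (0 of 41, against 0.00646% of genes higher), and 4 had an unadjusted p under 0.05 and higher values, against 3.36%: Pola1, Pole, Rfc2 and Rpa2. At that p 0 were lower, against 3.06%. The double mutants lay wholly above wild type in 5 members, Mcm7, Pold1, Pole, Prim1 and Rpa2, against 6.09% of all genes, and wholly below in 0, against 5.16%. Pola1 had 0.44 ± 0.16 (adjusted p = 0.754), or 0.28 without double-mutant replicate 2, and Rfc2 0.49 ± 0.18 (adjusted p = 0.758). Leaving out wild-type replicate 2, the library with the lowest members, gave a median of 0.18 here and 0.20 with 30 members above 0 in NrasG12D/+ against wild type. These comparisons share the wild-type libraries with each other.

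The members' differences with the Tet2 allele lay on both sides of 0. In Tet2+/- against wild type 17 were above 0, against 54.2% of all genes, with a median of -0.07 against 0.04; 0 passed, against 0.00646% higher, 2 had an unadjusted p under 0.05 and lower values, against 1.54%, and 0 higher values, against 1.82%. These were Ccne2, at 0.738 ± 0.05 RPKM in Tet2+/- and 1.74 ± 0.323 RPKM in wild type (SD, n = 3 each; -1.23 ± 0.38; adjusted p = 1), and Pold1 (-0.45 ± 0.19; adjusted p = 1). Groups did not overlap in 3 members higher, Orc1, Orc2 and Prim2, against 5.24% of all genes, and in 3 lower, Ccne2, Cdc45 and Pold1, against 4.01%. In double mutant against NrasG12D/+ 17 members were above 0, against 49.1%, with a median of -0.07; 0 passed, against 0% of genes in either direction, 2 were lower at an unadjusted p under 0.05, against 2.15%, and 0 higher, against 1.89%. Mcm3, another MCM subunit, had 27, 25 and 28.8 RPKM in double mutants, against 29.3, 43.3 and 34.4 RPKM in NrasG12D/+ libraries, and 31.3, 26.9 and 23.8 RPKM in Tet2+/- against 31.1, 27.4 and 31 RPKM in wild-type libraries. Double mutants lay below NrasG12D/+ without overlap (-0.39 ± 0.15; adjusted p = 1, and -0.24 without NrasG12D/+ replicate 2), as they did in 2 members with Ccne1, against 4.33% of all genes; in 0 they lay above, against 4.15%. Cdc45 overlapped and had -0.54 ± 0.24 (adjusted p = 1). Averaged over Nras genotype, 15 members were above 0, against 52.5%, and 0 passed, against 0%. At an unadjusted p under 0.05 0 were higher, against 1.87%, and 3 lower, against 1.93%: Cdc45 (-0.49 ± 0.17), Ccne2 (-0.68 ± 0.27) and Mcm3 (-0.26 ± 0.11). The 6 Tet2 heterozygotes were separate from the 6 others in 0 members in either direction, against 0.0646% of genes each way.

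Genes outside the 41, of the same pathway and of mitosis, were taken from 6 lists and read in the averaged Nras comparison. Of all genes tested, 48.9% were above 0 in this comparison, with a median of -0.01, and 0.0258% passed higher and 0.00646% lower. Only 1 of the genes on the lists passed, and it was on the mitosis list. Of 15 genes of origin firing and fork control, 13 were above 0 with a median of 0.40 and 0 passed. Ticrr, which brings initiation factors to origins, averaged 8.85 ± 1.83 RPKM in carriers and 4.87 ± 1.17 RPKM in non-carriers (SD, n = 6 each; 0.87 ± 0.20; adjusted p = 0.295), and Tipin, of the fork protection complex, 51 ± 8.86 RPKM in carriers and 28.3 ± 7.85 RPKM in non-carriers (0.89 ± 0.21; adjusted p = 0.303). Of 18 other replication subunits 11 were above 0, with a median of 0.05 and 0 passing; the smallest p were of Pold3, a polymerase delta subunit (0.45 ± 0.15), and Wdhd1, which links helicase and polymerase alpha (0.45 ± 0.17). Of 13 E2F and pocket protein genes 10 were above 0, with a median of 0.17; the repressor E2f7 had 0.83 ± 0.29 and E2f5 had -1.04 ± 0.45 (adjusted p = 0.552 for E2f7 and 0.678 for E2f5). Of 16 other nucleotide supply genes 10 were above 0, with a median of 0.11, among them Dut, the dUTPase (0.52 ± 0.21). Of 8 chromatin genes of the replication fork 6 were above 0, with a median of 0.19, led by the histone chaperone Asf1b (1.15 ± 0.41) and the clamp unloader Atad5 (0.48 ± 0.18).

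All 10 mitosis genes were above 0, against 48.9% of all genes tested, with a median of 0.80. Top2a, the topoisomerase that untangles sister DNA and peaks in G2 and mitosis, passed, as did 0.0258% of all genes in that direction. Top2a averaged 40.3 ± 4.86 RPKM in carriers, against 23.8 ± 1.72 RPKM in non-carriers (0.76 ± 0.09, limma adjusted p = 0.0376). It did not pass in NrasG12D/+ against wild type (0.76 ± 0.13, limma adjusted p = 0.296) or in double mutant against Tet2+/- (0.75 ± 0.13, adjusted p = 0.331). The alternatives below were run for the members, so Top2a was not put through them. Mki67, the proliferation marker Ki-67, averaged 144 ± 16.6 RPKM in carriers and 76.2 ± 13.3 RPKM in non-carriers (0.93 ± 0.13; adjusted p = 0.0565). By library the mitosis median was 0.53, 0.20 and 0.47 in NrasG12D/+ and 0.56, 0.28 and 0.44 in double mutants, against -0.35, -0.26 and -0.45 in Tet2+/- and -0.09, -0.55 and -0.18 in wild type. Carriers and non-carriers did not overlap in it, and they did in the replication genes. Whether the lists differ from each other was not tested.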

How the data were processed

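RNA sequencing of sorted stem cells was analysed in 12 libraries, 3 per genotype, grouped by GEO's labels. The deposited table holds log2 RPKM, an other unit than counts; the submitters' processing notes name CASAVA 1.8.2, TopHat2, edgeR and mm10, and libraries were made with a stranded kit per the labels' protocols. Whole reads and gene lengths were recovered from the values (prior of 0.25 reads, tolerance 0.001 reads) for all 18546 genes, giving depth and read floors; intervals and floors cover counting or library spread only. Lengths were compared with GENCODE M21.

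The model was limma 3.58.1, run in R 4.3.3, on the log2 values (12 libraries, 4 genotype means, 8 residual degrees of freedom, variance trend) over 15478 genes with 1 RPKM or more in at least 3 libraries; 3068 were left out. P-values were adjusted by the Benjamini-Hochberg method over all tested genes, with a threshold of 0.05, in each of 8 comparisons: the 4 genotypes in 5 pairs, both alleles averaged, and their interaction. The fit was checked on simulated data. Values per library are given for the members with the smallest p in each role group (2, or 1 in groups of 1 or 2) and in each comparison, and for the highest and lowest member; 2 genes are named per pathway list, plus any that passed, except 1 gene that is not reported here. Reads of Ccne1 and the differences of the remaining members complete the account. Members and lists were chosen with earlier results of these data known. Alternatives changed the filter, pseudocount, scaling, weights, trend, samples, block and test. Promoter windows came from RefSeq, GRCm38.p6.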

Additional observations from a re-analysis of the deposited data

How the results depend on the processing

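In all alternatives run, including limma-voom on the recovered reads, 0 members passed the adjusted threshold in any comparison. The share of all genes passing was counted in the main fit alone, where it was at most 0.0258% in a direction. All but 8 of the group values stayed close, medians within the spread between libraries of a genotype and counts within 1.5 times (551 did). Leaving out 1 library moved the median difference of the 41 to between 0.20 and 0.37 in NrasG12D/+ against wild type, 0.17 and 0.33 in double mutant against wild type (0.17 without double-mutant replicate 1 and 0.18 without wild-type replicate 2), 0.16 and 0.31 in double mutant against Tet2+/-, and 0.25 and 0.33 in the averaged Nras comparison. The number of members above 0 in the averaged Tet2 comparison was 12 to 26, the 26 without wild-type replicate 3, so it gives no direction. Orc1 and Gmnn changed sign in the averaged Nras comparison: -1.69 to 0.33 and -1.99 to 0.58 with 1 library left out, and 0.40 for Orc1 when wild-type replicate 1 and NrasG12D/+ replicate 2 were both left out, a setting that put the interaction median at -0.14. The library whose loss turned the sign held 2 reads of Orc1 or 0 of Gmnn. Libraries of 1 replicate number alone gave 0.49 (number 2) in NrasG12D/+ against wild type, 0.10 (number 2) and -0.19 (number 3) in Tet2+/- against wild type and 0.16 (number 3) for the interaction; the averaged Nras median was 0.28, 0.37 and 0.25 for numbers 1, 2 and 3. These, all counts above 0 and the values without the 3 members below were chosen after seeing the data. The adjusted p of Ccne2 in that comparison was 0.113 to 0.532 over the alternatives. The cause of these shifts was not tested. The labels do not say that replicate numbers pair the libraries. Same-numbered deviations had r of -0.13 to 0.14, with a median of 0.03, against -0.02 for other numbers. Of the 12 libraries 8 were closest to their own number, a hint from the data and not from the design. Pairing is thus neither shown nor excluded. With the number as a replicate block the averaged Nras median was 0.29 with 38 members above 0 and 0 passing. Gmnn, Ccne1 and Orc1 had 3 reads or fewer in 4, 2 and 1 libraries, of 19205045 to 34533120 reads, so these were not only the shallowest; without these 3 members the counts and medians kept their direction and size in all 8 comparisons.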

Other observations

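The gene length behind the deposited RPKM differed from merged exons by a factor of 0.363 (Rrm1) to 6.12 (Lig1) among the members, with a median of 1.77. For 67.7% of 17264 genes matched to GENCODE M21 it equalled the exon length added over all transcripts, and for 25.9% the merged exons. Length did not go by the number of transcripts alone: Pola2, with 13 transcripts, stood higher, at 14.4 RPKM in the table and 8.39 RPKM over merged exons. Where the factor is below 1, as for Pola2 and Rrm1, the gene models differ and the level over merged exons is uncertain. Over merged exons the first 6 members were Mcm3, Mcm6, Mcm7, Mcm4, Mcm5 and Lig1. Members that differed little between carriers and non-carriers of the Nras allele include subunits of the same complexes as members with small p: Mcm6 beside Mcm2 and Mcm7, Chaf1b beside Chaf1a, Prim2 beside Prim1, Pola2 beside Pola1, Rpa1 beside Rpa2 and Rrm1 beside Rrm2; these pairs were picked after their values were seen, and the difference within pairs was not tested.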
